A study of Mus musculus with 6 samples.

Results

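Retinal ganglion cell genes were followed in a bulk RNA-sequencing study of mouse retina. The set holds 10 genes chosen by symbol as markers or working parts of ganglion cells: Sncg, Nefl, Nefm, Nefh, Thy1, Slc17a6, Rbpms, Pou4f1, Pou4f2 and Isl2. All 10 were found among the 54532 genes listed, and all 10 were among the 17453 genes that passed the expression filter described below. The retinas came from mice with oxygen-induced retinopathy, a model in which young mice kept in high oxygen lose retinal capillaries and later form abnormal vessels. Mice went into 75% ± 2% oxygen on postnatal day 7 and received an injection into the vitreous on postnatal day 12. Retinas were collected on postnatal day 17. One group (3 libraries) received 1 nmol of an antagomir, a modified antisense oligonucleotide that blocks a microRNA, here miR-381-3p. The control group (3 libraries) received 1 nmol of a negative control antagomir. Both groups therefore carried the oxygen exposure and an intravitreal oligonucleotide, and neither shows the level in an uninjected or room-air retina. The mouse strain is not given in the sources used here, and nothing says that the libraries came from separate animals, so the spread between libraries may be partly technical. The table marks its control columns by name. The remaining 3 columns were taken as the antagomir libraries, and every direction below rests on that reading.

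Ganglion cells are the output neurons of the retina: they collect signals from bipolar and amacrine cells, and their axons form the optic nerve. They make up a small share of retinal cells, so their transcripts are a small part of a whole-retina library. The class IV POU factors Pou4f1 and Pou4f2 and the LIM-homeodomain factor Isl2 act in ganglion cell identity and subtype choice. Slc17a6 loads glutamate into synaptic vesicles, and the neurofilament subunits Nefl, Nefm and Nefh set the calibre of the long axon. Several of these genes are not exclusive to ganglion cells. Neurofilaments are also made by horizontal cells, Thy1 by other neurons, and Rbpms by vascular mural cells.

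The injected oligonucleotide is directed at the mature microRNA shown here because it defines the treatment, with its seed (bases 2 to 8) in capitals. RefSeq places it at chr12:109726870-109726891 on the plus strand of GRCm38.p6.
mmu-miR-381-3p: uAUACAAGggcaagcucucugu
A site fully matched to this seed reads CTTGTAT in DNA letters. No such site was found in any annotated 3′ UTR of the 10 genes (GENCODE M21, GRCm38), whereas 13.0% of the 13178 tested genes with a 3′ UTR hold it in their longest one. The shorter match TTGTAT, which pairs with bases 2 to 7, was present 5 times in the longest 3′ UTRs of 3 of the genes, and in 42.6% of the tested genes. The 5 sites are printed with flanking bases because they are the partial seed matches found. A match to bases 3 to 8 was not searched for. The Pou4f2 site alone is followed by an A, which can pair with the first base of the microRNA. How often that longer match occurs over all genes was not counted. Capitals mark the 6 matched bases.
Rbpms, chr8:33783013-33783018, minus strand: aatcacaatctTTGTATctttgtttttg
Rbpms, chr8:33782687-33782692, minus strand: taaaggtacttTTGTATtgtcatttttt
Pou4f1, chr14:104463900-104463905, minus strand: atttaattatgTTGTATgtcattgtttg
Pou4f1, chr14:104462405-104462410, minus strand: ggcaaatacatTTGTATtatataataat
Pou4f2, chr8:78433843-78433848, minus strand: ctttggcctagTTGTATattctcacttt
On the log2 scale Rbpms differed between the groups by -0.17, Pou4f1 by -0.23 and Pou4f2 by -0.24, all inside the range of the 7 genes without the shorter match. A match of letters is a description and does not show binding.

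Library depth lay between 13727596 and 16502352 reads on genes. The tissue label was checked on 10 rod photoreceptor genes, all of which were tested, with a summed level of 9660 to 9721 FPKM in the antagomir group and 9477 to 10980 in the controls. Libraries stood apart in their lens transcripts. The summed level of 13 lens genes was 368 FPKM in antagomir replicate 1, 873 in control replicate 2 and 309.7 in control replicate 3, against 5.31 to 9.24 in the other 3 libraries. Results are therefore given with and without those 3 libraries.

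All 10 ganglion cell genes had lower mean levels in the antagomir group than in the controls, and none of the differences passed the test. Nefh, the heavy neurofilament subunit, was lower in every antagomir library than in every control library, at 21.1 ± 2.22 against 27.8 ± 1.75 FPKM. For the other 9 genes the groups overlapped, since control replicate 1 lay within or below the antagomir range for each of them. The log2 fold changes of the set ran from -0.38 to -0.15 with a median of -0.23, beside a median of 0.0013 over all genes tested. In bulk tissue, fewer ganglion cells and less of these transcripts per cell cannot be told apart. Each gene was tested with limma on log2(FPKM + 1) among the 17453 genes with a mean of at least 0.5 FPKM. By limma with Benjamini-Hochberg adjustment 0 of 10 passed, where 0% of all genes tested did, and the adjusted p ran from 0.733 to 0.904. At an unadjusted p under 0.05, 1 of the 10 was lower (Nefh), against 2.98% of all genes tested. A negative fold change, seen in 10 of 10, was seen in 49.5% of all genes, and one of -0.1 or lower, also seen in 10 of 10, in 21.8%. The cut of -0.1 lies just short of the weakest fold change of the set (-0.15), so the second count follows from where the cut was placed. The 10 genes also move together, as described below, so neither count is a measure of an excess over all genes.

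The neurofilament genes encode a triplet that co-assembles in the axon. All loci are given on GRCm38. The light subunit Nefl, which can form filaments by itself, was at 77.7, 70.5 and 76.9 FPKM in antagomir replicates 1, 2 and 3. In control replicates 1, 2 and 3 it stood at 74.6, 83.9 and 97.6 FPKM. Control replicates 2 and 3 were above all antagomir libraries, and control replicate 1 lay among them. The log2 fold change was -0.18 (SE 0.10, 95% interval -0.42 to 0.064, limma adjusted p = 0.822).

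Nefm, the medium subunit, was at 20.7, 19.5 and 26.0 FPKM in the antagomir libraries and at 19.96, 30.6 and 34.6 in the controls. Control replicate 1 sat with the 2 lowest antagomir libraries, and control replicate 3 held 1.73 times as much as control replicate 1. Its log2 fold change was -0.32 (SE 0.20, 95% interval -0.81 to 0.16, limma adjusted p = 0.839), the widest interval of the 10 genes. Nefm had the largest relative spread in the set, with an SD of 24.9% of its mean over the 6 libraries.

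Nefh (chromosome 11, 4938754 to 4948064, minus strand) encodes a subunit whose long tail carries many phosphorylation sites. It was at 21.2, 18.8 and 23.2 FPKM in the antagomir libraries. The controls held 27.1, 26.4 and 29.7 FPKM. The groups did not overlap, which was also true of 5.87% of all genes tested in the same direction, and the lowest control exceeded the highest antagomir library by less than the range inside either group. The log2 fold change was -0.38 (SE 0.087, 95% interval -0.59 to -0.18), lower in 3 of 3 antagomir libraries, with unadjusted p = 0.00333 and adjusted p = 0.733 by limma. Nefh was the only gene of the set whose interval lay wholly below 0, and it rested on 1221 to 1643 reads per library.

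Gene models limit how far the light and medium subunits can be compared. Nefl (chromosome 14, 68083863 to 68089095, plus strand) lies inside the span of Nefm (chromosome 14, 68082590 to 68124846, minus strand). A long transcript, Nefm-202, has a last exon that covers 1108 exonic bases of Nefl on the opposite strand, or 32.8% of the exonic length of Nefl and 19.2% of that of Nefm. The strand setting of the counting is not given in the sources used here, so reads in these bases cannot be assigned to either gene with certainty. The deposited length of Nefm, 5782 bases, is the union of both annotated transcripts, whereas Nefm-201 alone has 3334 bases. With the shorter length, the mean level of Nefm over the 6 libraries would be 43.8 FPKM in place of 25.2. The ratio of the group means does not depend on the length, whereas a fold change on log2(FPKM + 1) shifts with the scale of the values.

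Gamma-synuclein, encoded by Sncg (chromosome 14, 34370274 to 34374789, minus strand), is a small cytosolic protein abundant in ganglion cell bodies and axons. Sncg was at 88.2, 77.4 and 106.95 FPKM in antagomir replicates 1, 2 and 3. It was at 86.6, 96.6 and 119.6 FPKM in control replicates 1, 2 and 3. Antagomir replicate 3 exceeded 2 of the 3 controls, so the groups overlapped. The difference of -0.15 on the log2 scale (SE 0.15, 95% interval -0.51 to 0.21) had an adjusted p of 0.900 by limma.

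**Figure D1:**
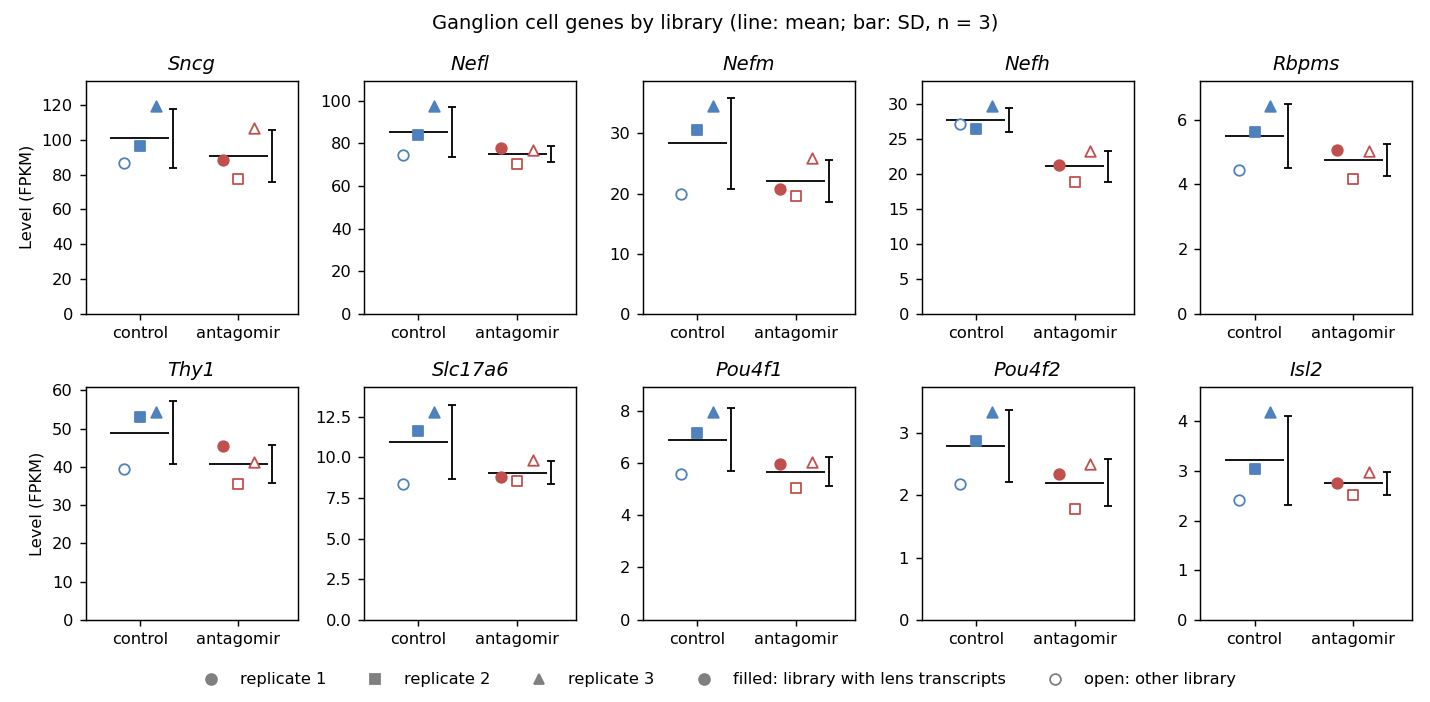
Level in FPKM (vertical axis, from 0) of each ganglion cell gene in the 3 control (blue) and 3 antagomir (red) libraries; the line is the group mean, the bar its SD (n = 3), and filled markers are the 3 libraries with lens transcripts. Control replicate 3 is the highest library in all 10 panels, and only for Nefh do all controls lie above all antagomir libraries.

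Thy1 (chromosome 9, 44043384 to 44048579, plus strand) encodes a surface glycoprotein long used to label ganglion cells. Its levels were 45.4, 35.6 and 41.4 FPKM with the antagomir and 39.6, 53.0 and 54.3 FPKM in the controls. Only control replicate 1 fell inside the antagomir range. The log2 fold change was -0.25 (SE 0.14, limma adjusted p = 0.818).

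Slc17a6 (chromosome 7, 51622006 to 51671119, plus strand) encodes the vesicular glutamate transporter VGLUT2, used by ganglion cells at their terminals in the brain. It stood at 8.80, 8.56 and 9.85 FPKM in the antagomir group, with an SD of 7.56% of the mean. The control values of 8.38, 11.6 and 12.8 FPKM held both the lowest and the highest of the 6 libraries. The log2 fold change was -0.23 (SE 0.15, limma adjusted p = 0.840).

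Rbpms (chromosome 8, 33782643 to 33929863, minus strand) encodes an RNA-binding protein used to count ganglion cells in sections. It was at 5.06, 4.17 and 5.05 FPKM with the antagomir. The controls had 4.46, 5.63 and 6.43 FPKM, so that control replicate 1 lay between antagomir replicate 2 and the other antagomir libraries. Its log2 fold change was -0.17 (SE 0.13, limma adjusted p = 0.866). Overlapping genes held few reads over the 6 libraries, with 2 for Gm26978 and 5 for Gm26632, against 435 to 583 reads per library for Rbpms itself.

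In FPKM over the deposited lengths, the transcription factor genes were, with Rbpms, the lowest of the set. Pou4f1 (chromosome 14, 104461676 to 104467999, minus strand), whose product is called BRN3A, was at 5.96, 5.02 and 6.02 FPKM in the antagomir libraries and at 5.57, 7.15 and 7.94 in the controls. Control replicates 2 and 3 lay above all antagomir libraries, with a log2 fold change of -0.23 (SE 0.13, limma adjusted p = 0.818).

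Pou4f2 (chromosome 8, 78433010 to 78436645, minus strand), whose product BRN3B is needed for ganglion cell differentiation and survival in mouse, was at 2.34, 1.78 and 2.498 FPKM with the antagomir. The controls had 2.18, 2.88 and 3.34 FPKM, and the range inside each group exceeded the difference between the group means. The log2 fold change was -0.24 (SE 0.15, limma adjusted p = 0.835).

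Isl2 (chromosome 9, 55538672 to 55546180, plus strand) marks a subset of ganglion cells in mouse. It was at 2.76, 2.52 and 2.99 FPKM in the antagomir group and at 2.42, 3.03 and 4.19 in the controls. Its control values held both the lowest and the highest library of the 6, as for Slc17a6. The log2 fold change was -0.15 (SE 0.16, limma adjusted p = 0.904). Gm17226, which overlaps Isl2 on the opposite strand, held 12 reads over the 6 libraries. Counting error, 1 SD of a Poisson count, was 8.87% to 11.3% of the reads of Isl2 and 1.48% to 1.63% of those of Nefl, so the low genes are the less precise.

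The 10 genes moved together from library to library. All 10 were highest in control replicate 3, against 15% of all genes tested, and 8 were lowest in antagomir replicate 2, against 17.7%. Control replicate 1 was below the other controls for 9 of 10 genes, Nefh being the exception, and this order was seen in 31.9% of all genes. Control replicate 3 exceeded every antagomir library for all 10 (25.6% of all genes), and control replicate 2 did so for 9 (25.7% of all genes), Sncg being the exception. The mean centred level of the set, on the log2 scale, was -0.086, -0.26 and 0.0015 in antagomir replicates 1, 2 and 3. It was -0.14, 0.15 and 0.33 in control replicates 1, 2 and 3. The set took 0.0714% to 0.0847% of the assigned reads in the antagomir libraries and 0.0765% to 0.109% in the controls.

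The spread inside the control group, relative to its mean, was larger than inside the antagomir group for 9 of the 10 genes, Nefh being the exception. The SD inside the control group ran from 6.31% of the mean for Nefh to 27.9% for Isl2, and inside the antagomir group from 5.25% for Nefl to 17% for Pou4f2. Control replicate 3 exceeded control replicate 1 by 1.10 times for Nefh and by up to 1.73 times for Nefm and Isl2. Nefh thus differed from the rest in control replicate 1, where it was 0.16 above its own mean over the 6 libraries on the log2 scale while the other 9 genes were below theirs. Measured as the distance of a gene's standardised profile over the 6 libraries from the mean profile of the 10, Nefh was farthest at 1.42, with the other 9 between 0.306 and 0.948.

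**Figure D2:**
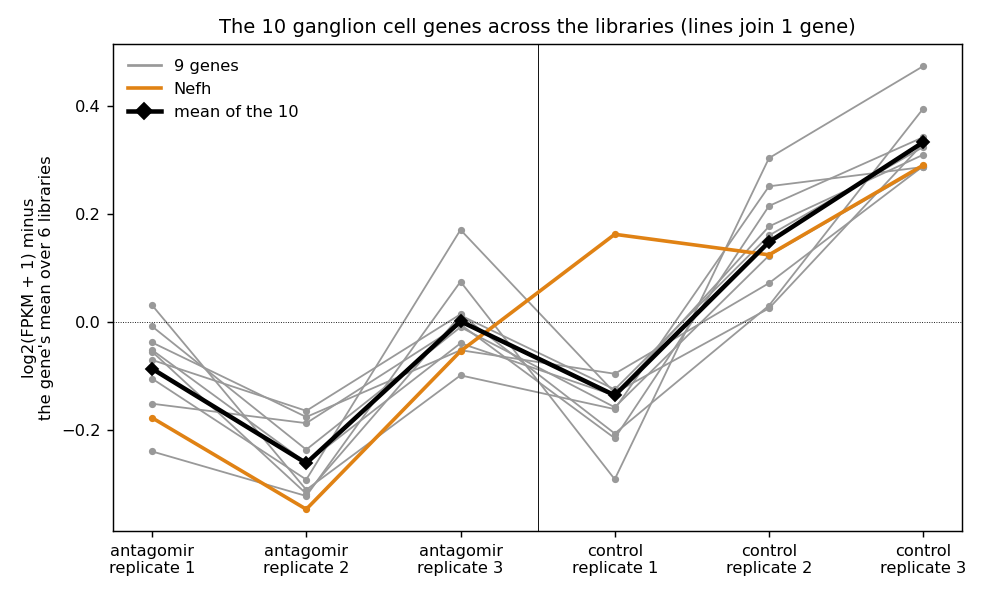
Level of each gene relative to its own mean over the 6 libraries (vertical axis, difference on log2(FPKM + 1)), by library; grey lines are 9 genes, orange is Nefh, and black is the mean of the 10. The mean rises from -0.26 in antagomir replicate 2 to 0.33 in control replicate 3, and in control replicate 1 only Nefh lies above 0.

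The fold changes of 9 of the genes depended on which controls were used. Without control replicate 1 the median log2 fold change of the set was -0.36, and 8 of 10 genes were lower at an unadjusted p under 0.05, against 3.12% of all genes tested in the same fit. That library was below the other controls for 9 of the 10 genes, so leaving it out raises their control means. The 10 genes also move together. The count of 8 is therefore no measure of an excess over all genes. The smallest adjusted p of the 10 was then 0.599 by limma. Without control replicate 3 the median was -0.13, with Isl2 at 0.015. Without antagomir replicate 2, the lowest library for 8 of the genes, the median was -0.15. Nefh stayed between -0.45 and -0.31 whichever single library was left out.

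Lens transcripts moved with part of this pattern. The 13 lens genes were all detected, their summed level ran from 5.31 to 368 FPKM in the antagomir group and from 5.84 to 873 in the controls, and control replicates 2 and 3 were high for both lens and ganglion cell genes. Among the 3 libraries with few lens transcripts (antagomir replicates 2 and 3, control replicate 1) the median log2 fold change of the set was 0.011, with 5 genes lower and 5 higher. Nefm was at 0.17, Isl2 at 0.13, Slc17a6 at 0.12, Sncg at 0.070 and Rbpms at 0.035 there, whereas Nefh was at -0.36. Among the 3 libraries with lens transcripts (antagomir replicate 1, control replicates 2 and 3) all 10 were lower, with a median of -0.29 and Nefh at -0.38. With lens presence as a term in the fit on all 6 libraries the median was -0.15 and Nefh was at -0.37. The last 2 fits were chosen after seeing the data. Each of the within-library-kind values sets 2 libraries against 1, and no gene of the 10 passed there (smallest adjusted p by limma 0.977 without and 0.973 within the lens-bearing libraries). The part of lens transcripts in these differences was not tested.

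**Figure D3:**
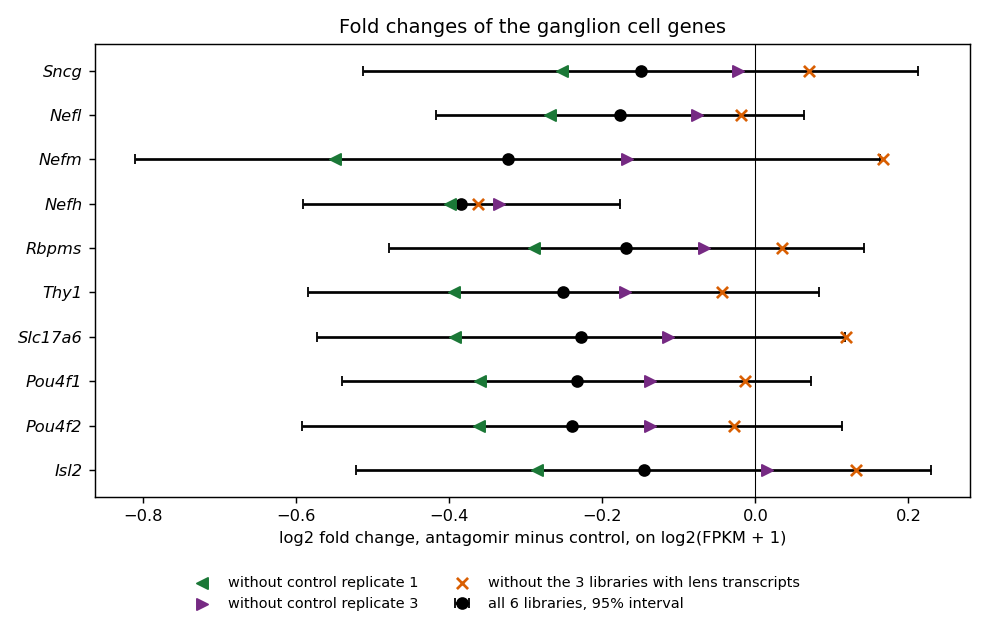
log2 fold change, antagomir minus control (horizontal axis, on log2(FPKM + 1)), of each ganglion cell gene; black points and bars are all 6 libraries with the 95% interval, and coloured marks leave out the libraries named. Nefh stays between -0.40 and -0.34 under the settings drawn, while the other 9 genes lie between -0.55 and -0.25 without control replicate 1 and between -0.04 and 0.17 without the lens libraries.

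The levels spanned a 38.3-fold range over the set. Per length of gene, the mean over the 6 libraries fell in the order Sncg (95.9 FPKM), Nefl (80.2), Thy1 (44.9), Nefm (25.2), Nefh (24.4), Slc17a6 (9.07 and 10.9 in the antagomir and control groups), Pou4f1 (6.28), Rbpms (5.13), Isl2 (2.98) and Pou4f2 (2.503). Sncg was above Nefl and Isl2 above Pou4f2 in all 6 libraries, although the difference of each pair of means was smaller than the summed SDs. The same held for Pou4f1 above Rbpms. Nefm and Nefh could not be ordered, since Nefm was the higher in 4 of 6 libraries and its level depends on the transcript length taken. The gap between Thy1 and Nefm closes likewise if Nefm alone is given the length of Nefm-201. Other deposited lengths also exceed the longest coding transcript, as for Thy1 (2995 against 1735 bases) and Rbpms (6556 against 2547 bases). The places of Thy1 and Rbpms in the order, including Pou4f1 above Rbpms, therefore depend on the length taken as well.

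Ratios between subunits compare genes inside a library and so do not depend on library scaling. The ratio of Nefh to Nefl, in FPKM, was 0.274, 0.267 and 0.302 in the antagomir libraries. It was 0.364, 0.315 and 0.305 in the controls, all above the antagomir libraries, the nearest pair being antagomir replicate 3 and control replicate 3. The group means were 0.281 ± 0.0188 and 0.328 ± 0.0317 (SD, n = 3), with p = 0.1 by an exact two-sided permutation test, the smallest that 3 against 3 libraries can give, and p = 0.4 adjusted over the 4 ratios compared. The difference of -0.0471 became -0.0291 without control replicate 1.

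The ratio of Nefm to Nefl was 0.267, 0.277 and 0.338 with the antagomir and 0.268, 0.365 and 0.354 in the controls. The groups overlapped (exact permutation p = 0.3, adjusted 0.6), and the difference of -0.0351 ran from -0.0658 to -0.0171 when single libraries were left out. The paralogous factors Pou4f1 and Pou4f2 kept a ratio between 2.38 and 2.82 in all 6 libraries, with group means of 2.59 ± 0.207 and 2.47 ± 0.0885 (exact permutation p = 0.5, adjusted 0.667). The ratio of Nefh to Nefm was 0.961 ± 0.066 against 1.03 ± 0.288 (exact permutation p and adjusted p both 1.0), and control replicate 1 was highest at 1.36.

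**Figure D4:**
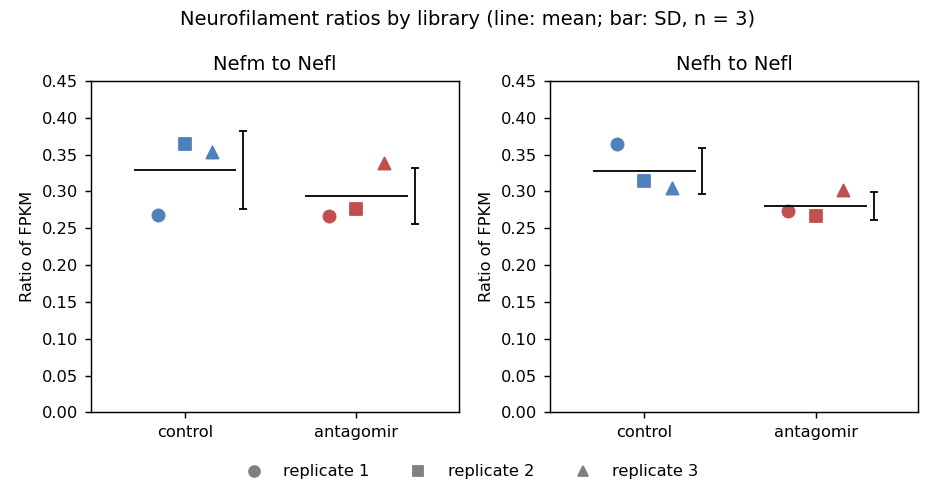
Ratio of FPKM (vertical axis, from 0) of Nefm to Nefl and of Nefh to Nefl in each control (blue) and antagomir (red) library; the line is the mean and the bar the SD (n = 3). For Nefh to Nefl the controls lie between 0.305 and 0.364 and the antagomir libraries between 0.267 and 0.302.

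Wider lists of ganglion cell and axon genes were described beside the set, and 0 genes of any list passed an adjusted p of 0.05 by limma. Of 27 tested members of a list of other ganglion cell and subtype markers, 20 were lower and 7 higher, with a median log2 fold change of -0.12. At an unadjusted p under 0.05, 2 were lower (2.98% of all genes) and 0 higher (3.22%). These were Nrn1, which encodes neuritin, a promoter of neurite growth, at 9.53 ± 0.157 against 12.5 ± 1.32 FPKM, and Tusc5 at 8.48 ± 1.67 against 12.3 ± 1.66. The groups did not overlap for either gene, which was part of the rule that named them. Over the list, 3 of 27 genes were lower without overlap, against 5.87% of all genes tested. The most abundant of the list were the calcium-binding protein gene Calb2, at 149 ± 13.1 against 168 ± 21.9, and the neuronal tubulin gene Tubb3, at 70.6 ± 3.66 against 70.8 ± 9.71. Both are also made outside ganglion cells. The deubiquitinase gene Uchl1 was at 65.9 ± 5.21 against 71.2 ± 14.8, and Jam2, which encodes a cell adhesion molecule, at 47.3 ± 4.01 against 45.9 ± 3.54.

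Transcription factors of ganglion cell development and subtypes gave no common shift. Of 16 tested, 10 were lower and 6 higher, with a median of -0.032 and 0 at an unadjusted p under 0.05. The most abundant, Isl1, is also made by bipolar and amacrine cells and stood at 37.0 ± 1.22 against 38.01 ± 2.43 FPKM. Sox12 was at 16.98 ± 1.36 against 16.5 ± 0.479, and Myt1, a zinc finger gene of neuronal differentiation, at 16.4 ± 1.68 against 15.4 ± 0.664. Barhl2, which is shared with amacrine cells, was at 5.33 ± 0.746 against 6.33 ± 0.467.

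Of 19 action potential and axon node genes, 16 were lower and 3 higher, with a median of -0.14 and 4 lower at an unadjusted p under 0.05 (2.98% of all genes). The potassium channel gene Kcna2 was at 5.75 ± 0.577 against 7.47 ± 0.901 FPKM, the sodium channel gene Scn1a at 4.77 ± 0.530 against 5.84 ± 0.391, and the potassium channel gene Kcnc2 at 4.21 ± 0.0719 against 5.43 ± 0.978. The groups did not overlap for these 3 genes, which was part of the rule that named them. The other gene at that threshold had overlapping groups. Over the list, 4 of 19 genes were lower without overlap, against 5.87% of all genes tested. Nfasc, a cell adhesion gene of the node, was the most abundant, at 42.3 ± 1.79 against 39.0 ± 1.09, with every antagomir library above every control, as for 6.16% of all genes tested. The contactin gene Cntn1 was at 11.5 ± 0.416 against 11.98 ± 0.785, with overlapping groups.

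Axon cytoskeleton and transport genes split evenly, with 10 of 20 lower and a median of -0.012. At an unadjusted p under 0.05, 3 were lower (2.98% of all genes). The groups did not overlap for these 3 genes, which was part of the rule that named them. Over the list, 4 of 20 genes were lower without overlap (5.87% of all genes tested) and 1 was higher without overlap (6.16%). The tau gene Mapt was at 21.9 ± 1.68 against 25.2 ± 0.814 FPKM, the microtubule-associated protein gene Map1a at 9.64 ± 1.91 against 13.9 ± 1.94, and the cytoskeletal linker gene Dst at 5.16 ± 0.242 against 6.33 ± 0.543. Tuba1a, an alpha-tubulin gene, was the most abundant at 283 ± 16.9 against 261 ± 3.12, and was the gene higher without overlap. The beta-tubulin gene Tubb2a (126 ± 14.02 against 130.3 ± 9.18), the stathmin gene Stmn3 (129 ± 7.42 against 126 ± 4.44) and the beta-synuclein gene Sncb (108 ± 2.28 against 107 ± 11.9) overlapped between the groups.

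Markers of other retinal cells show what else differed between the libraries. On the centred log2 scale, the mean level of 10 rod genes was 0.12 in control replicate 1, where 9 of the ganglion cell genes were low, and -0.09 and -0.073 in control replicates 2 and 3. Amacrine genes were highest in control replicate 2 (0.18) and near their mean in control replicate 3 (-0.008). Pigment epithelium genes (9 tested) swung more, at 0.24, -0.49 and 0.017 in antagomir replicates 1, 2 and 3. They were at -0.46, 0.59 and 0.10 in control replicates 1, 2 and 3, a pattern partly shared with the ganglion cell genes. The part of pigment epithelium in those genes was not tested. Red blood cell genes (5 tested) were at -1.01 in antagomir replicate 2 and at 1.51 in control replicate 1. Microglia genes (12 tested) were at 0.54 in antagomir replicate 2 and at -0.33 in control replicate 2. Their part was not tested either. For oligodendrocytes, which wrap the optic nerve behind the eye, 4 of 10 markers were tested, and they had a summed level of 6.62 to 11.6 FPKM in the antagomir group and 6.59 to 12.7 in the controls. The part of these cells in the ganglion cell values was not tested.

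Each of these lists had 0 genes past an adjusted p of 0.05 by limma. Median log2 fold changes were near 0 for amacrine (-0.045), bipolar (-0.027), rod (0.034), cone (-0.039), Müller glia (0.019), endothelial (-0.056), pericyte (-0.073), oligodendrocyte (-0.046), skeletal muscle (0.025) and pigment epithelium (-0.044) genes. They were 0.084 for horizontal cell, -0.26 for astrocyte, 0.31 for microglia, -1.20 for red blood cell and -1.59 for lens genes. The most abundant genes gave overlapping groups for Sept4 in horizontal cells (36.9 ± 2.37 against 38.02 ± 4.08 FPKM), Glul in Müller glia (417 ± 25.9 against 467 ± 69.2) and Mbp in oligodendrocytes (4.06 ± 1.44 against 4.35 ± 1.996). Overlap was also seen for Gnb3 in cones (240.3 ± 72.5 against 191 ± 27.3), Gfap in astrocytes (21.2 ± 14.8 against 25.7 ± 8.98), Ctss in microglia (32.1 ± 16.3 against 16.3 ± 3.65) and Kdr in endothelium (14.6 ± 5.27 against 10.3 ± 2.19). It was seen likewise for Vtn of the pericyte list (254 ± 26.7 against 259 ± 18.95), Cryaa in lens (33.5 ± 56.8 against 109 ± 124), Ttr in pigment epithelium (49.8 ± 16.4 against 36.8 ± 12.8) and Mylpf in skeletal muscle (2.76 ± 0.956 against 2.63 ± 0.516). Vtn made up most of the summed pericyte list (260 to 304 and 267 to 310 FPKM), so it says little about the other members. All 6 tested pericyte genes were lower (49.5% of all genes), and 1, not Vtn, was lower without overlap (5.87% of all genes). The haemoglobin gene Hbb-bs, at 20.8 ± 11.3 against 75.9 ± 50.4, was lower in every antagomir library than in every control.

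**Figure D5:**
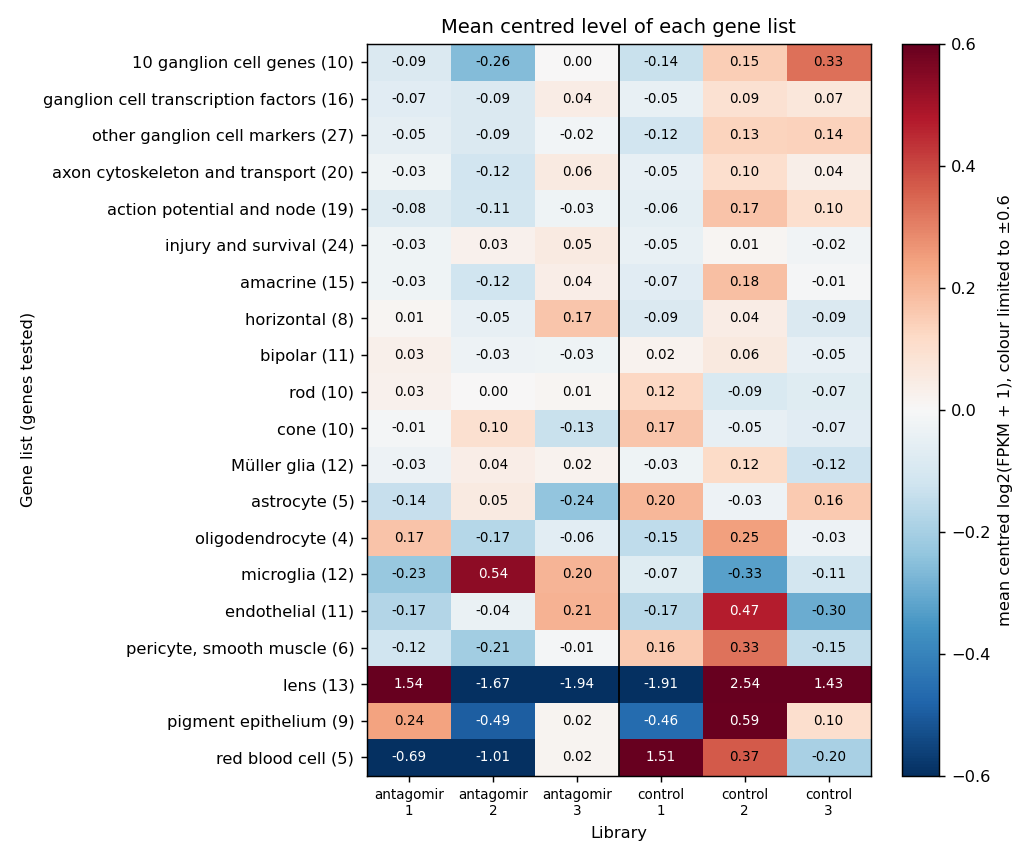
Mean centred level, on log2(FPKM + 1), of each gene list (rows, with the number of genes tested) in each library (columns); red is above and blue below the list's mean, with colours limited at 0.6 and the value printed in each cell. The 10 ganglion cell genes run from -0.26 to 0.33, the lens list from -1.94 to 2.54.

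Genes outside the set with the most similar profile were sought among 14943 other tested genes with a mean of at least 1 FPKM, as the smallest distance between standardised profiles over the 6 libraries. The nearest 5 were the pseudogene Gm6166 (distance 0.452), Tmem151a (0.475), Ankrd9 (0.481), Tom1l2 (0.493) and the sodium-activated potassium channel gene Kcnt1 (0.513). Gm6166 had only 2 to 14 reads per library. Tom1l2, the most abundant of the 5, had a log2 fold change of -0.067 and ran from 20.1 to 23.0 FPKM, so its profile had the same order as the set at a far smaller size.

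Promoter sequence was examined because the genes moved together. RefSeq start sites were matched for 5 of the 10 genes (6 windows of 250 bases before to 50 after the start, GRCm38.p6). The windows were searched on both strands for TAATTA, a homeodomain core, ATTAAT, a core of class IV POU sites, and CATCTG, an E-box variant of bHLH factors. They occurred in 5.29%, 4.75% and 17.2% of 32851 promoters, and in 1, 1 and 2 of the 6 windows. The 2 windows with a match are shown, with the matched bases in capitals.
Slc17a6, chr7:51624387-51624686, plus strand: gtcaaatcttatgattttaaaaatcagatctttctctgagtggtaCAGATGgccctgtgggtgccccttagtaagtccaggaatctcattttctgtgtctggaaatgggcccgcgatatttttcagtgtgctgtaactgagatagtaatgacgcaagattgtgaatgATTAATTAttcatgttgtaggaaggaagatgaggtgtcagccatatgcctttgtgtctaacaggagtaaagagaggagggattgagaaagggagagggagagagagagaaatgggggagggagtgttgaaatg
Sncg, chr14:34374620-34374919, minus strand: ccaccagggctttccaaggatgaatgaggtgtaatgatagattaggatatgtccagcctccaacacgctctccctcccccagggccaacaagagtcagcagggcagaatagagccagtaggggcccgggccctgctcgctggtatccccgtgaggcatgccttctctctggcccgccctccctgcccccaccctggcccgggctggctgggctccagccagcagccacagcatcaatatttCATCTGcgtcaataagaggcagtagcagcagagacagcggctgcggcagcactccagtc
In the Slc17a6 window the first 2 motifs overlap. That window surrounds a second start site, 2631 bases into the annotated gene and within an intron, and the window of the first start site of Slc17a6 held none of the motifs. The windows of Pou4f1, Pou4f2 and Isl2 held none either, and were rich in G and C (78.3%, 69.7% and 67.3%, against a median of 52.7% over all promoters). The Isl2 window surrounds a start site 2477 bases into the annotated gene and within an exon, so the start of that gene was not searched. Within these windows no motif was common to the genes.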

How the data were processed

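RNA was sequenced from 6 mouse retina libraries. The authors deposited 1 table of FPKM (fragments per length of gene and per library size), with gene length and position, per the file headers. The submitters' processing notes name GRCm38 and mm10. Aligner, counter and strandedness: not given in the sources used here. Multiplying by gene length turned 100% of values into whole multiples of 1 read (within 0.01), so reads were rebuilt for counting error, depth and 1 alternative. No pair of libraries agreed within counting noise (the smallest chi-square was 4.79 per degree of freedom). Counting errors cover counting only.

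Genes with a mean of at least 0.5 FPKM (17453) were fitted with limma 3.58.1 in R 4.3.3 (eBayes with a trend) on log2(FPKM + 1), antagomir minus control, without covariates. P-values are two-sided. The Benjamini-Hochberg method adjusted them over the 17453 genes, and 0.05 was the threshold. Fold changes on this scale understate those of low genes. The fit was tested on simulated data. Same-numbered libraries are not paired in the labels. The 10 genes, the lists, the tests and the naming rule were chosen with earlier results of these data known.

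Named beside the 10 genes were up to 4 of the most abundant members of each ganglion cell and axon list, members of those lists with an unadjusted p under 0.05 whose groups did not overlap, the most abundant member of every other list, overlapping genes with reads, and the 5 nearest profiles. Some genes that this rule gives are not reported here. The 3′ UTRs and gene models come from GENCODE M21, and promoter and microRNA sequences from RefSeq. Alternatives were pseudocounts of 0.1 and 0.01, no filter, a minimum of 2 FPKM, TPM, quantile normalization, voom with TMM factors on rebuilt reads, eBayes without a trend, a replicate block, leaving out each library, and leaving out or modelling the lens libraries.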

Additional observations from a re-analysis of the deposited data

How the results depend on the processing

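None of the 10 genes was called under any of 19 alternatives, and of 190 recomputed fold changes 184 kept their direction. The 6 that turned were Isl2 without control replicate 3 (0.0146, in a range from -0.286 without control replicate 1), and Isl2 (0.131), Nefm (0.167), Slc17a6 (0.119), Sncg (0.0704) and Rbpms (0.0350) when the 3 lens-bearing libraries were left out. That fit sets 2 libraries against 1, and the lone control is assumed to vary like the others. The causes were not tested.

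Over all genes, 0 were called in the main analysis (1082 at an unadjusted p under 0.05), 1 by voom, 5 without a trend in eBayes, and 0 to 2 when leaving out single libraries. With the replicate block 0 genes were called (856 at an unadjusted p under 0.05). Deviations from the group means correlated at -0.194, -0.102 and -0.137 between same-numbered libraries. Such deviations sum to 0 within a group, so the correlations are tied to each other and cannot decide whether libraries were paired. The block changed no call among the 10 genes. The Nefm to Nefl difference was -0.0351 and became -0.0609 with the length of Nefm-201. Planned negative binomial count tests were not run, because the deposited unit is FPKM. Depth limits Isl2 and Pou4f2 most, at 79 to 148 reads per library.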

Other observations

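Genes of injury response and survival, which ganglion cells use after axon damage, were described as a further list. Of 24 tested, 12 had a positive and 12 a negative log2 fold change (median 0.0024), and 0 passed an adjusted p of 0.05 by limma. At an unadjusted p under 0.05, 2 were higher (3.22% of all genes tested) and 0 lower. Bbc3, which encodes the pro-apoptotic protein PUMA, was at 5.34, 5.21 and 5.42 FPKM in the antagomir libraries. It was at 4.27, 4.49 and 4.32 in the controls (log2 fold change 0.24, SE 0.065, limma adjusted p = 0.801). The groups did not overlap for Bbc3, which was part of the rule that named it. Over the list, 2 of 24 genes were higher without overlap, against 6.16% of all genes tested. Jun, a transcription factor gene induced by axon injury, was at 18.2, 27.7 and 26.6 FPKM against 18.8, 16.2 and 16.9, with antagomir replicate 1 inside the control range (log2 fold change 0.44, SE 0.16, limma adjusted p = 0.801). Atf4, a stress-response factor gene and the most abundant of the list, was at 125 ± 13.7 against 108 ± 4.43 FPKM. Ddit3, a gene of the unfolded protein response, was at 20.0005 ± 1.75 against 19.04 ± 1.79, and the growth cone gene Gap43 at 19.1 ± 0.553 against 19.8 ± 1.62. These genes are expressed by many retinal cells.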
